A study of Homo sapiens with 18 samples.

Results

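The 42 genes described here encode enzymes of the lysosome, proteins of its membrane, subunits of its proton pump and the transcription factors best known for regulating them. They were taken by gene symbol from the authors' gene table, in which all 42 were found among 62830 listed genes. By role they comprise 12 proteases or protease-like proteins, 10 glycosidases and lipid-handling enzymes, 3 other soluble lysosomal proteins, 5 membrane proteins, 9 proton pump genes and 3 transcription factors. Of these, 41 reached 1 FPKM (fragments per kilobase of transcript, scaled to the fragments sequenced) in at least 3 libraries and were tested. The exception was CTSS, cathepsin S, which was listed at 0 in 7 libraries and did not exceed 0.380 FPKM in any.

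The cells were MDA-MB-231, an established oestrogen receptor-negative breast cancer line with a mesenchymal appearance. Wild-type cells and TRIM27 knockout cells were each studied untreated, after 24 hours in 2 µM olaparib, an inhibitor of PARP catalytic activity, or 48 hours after transfection with 100 pM of a small interfering RNA against PARP1 (siPARP1; dose as labelled). Each of the 6 groups held 3 libraries of polyadenylated RNA, selected on oligo(dT) beads, and the labels place all 18 in 1 batch. Nothing in the labels places the 3 replicates of a group in different cultures; the p-values therefore reflect sample-to-sample spread alone, possibly only technical. They also do not say whether the knockout is a clone or a pool. The protocols mention a DMSO vehicle and a non-targeting siRNA, but no library carries either label, and the libraries labelled by genotype alone served as controls here. For siPARP1, loss of PARP1, transfection and culture time therefore cannot be told apart, and the same holds for olaparib and its vehicle.

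Lysosomes are the acidic compartments in which cells break down proteins, glycans and lipids delivered by endocytosis and autophagy. Their interior is acidified by the vacuolar ATPase, whose cytosolic V1 sector hydrolyses ATP and whose membrane V0 sector carries protons. Most of their soluble enzymes are tagged with mannose 6-phosphate in the Golgi and sorted by receptors for that tag. TFEB, TFE3 and MITF bind promoter elements of many lysosomal genes, and they are held in the cytosol when the kinase mTORC1 is active on the lysosome surface. Cathepsins have been studied in breast cancer for their part in matrix breakdown when they are secreted.

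The libraries summed to 812699 to 910313 FPKM, of which 43.4% to 49.8% lay on unnamed loci, and 13225 to 13623 genes reached 1 FPKM in each. TRIM27 was 1.18 to 1.65 FPKM in untreated wild-type and 0.547 to 0.665 FPKM in untreated knockout libraries, lower in the knockout by a log2 difference of -0.59 (limma adjusted p = 0.000538), so its mRNA was reduced and not absent. PARP1 in siPARP1 libraries averaged 19.1% of untreated in wild-type and 16.8% in knockout cells. With olaparib PARP1 was lower too, by log2 differences of -0.52 in wild-type and -0.45 in knockout cells (limma adjusted p = 2.15e-05 and 7.99e-05). Summed over the transcripts in the authors' transcript table, both olaparib calls (limma adjusted p = 0.109 and 0.733) and the knockout siPARP1 call (0.206) were lost. The share of mitochondrially encoded genes in annotated FPKM was 21.2% and 19.7% in wild-type and knockout cells without treatment, 24.8% and 24.5% with olaparib, and 25.8% and 27.6% with siPARP1. Of 6 markers of macrophages and other leukocytes, cells rich in lysosomes, 1 reached 1 FPKM in any library and the 6 summed to 0.113 to 1.14 FPKM, while all 4 mesenchymal markers were present (1984.1 to 3091.1 FPKM summed). Of 5 epithelial markers 3 reached 1 FPKM, all keratins, and EPCAM and CDH1 did not. The 5 summed to 2416.5 to 2635.7 FPKM in untreated and 1105.6 to 1203.7 FPKM in siPARP1 wild-type libraries, and to 2585.1 to 2836.7 and 954.71 to 978.89 FPKM in knockout libraries. The part of these shifts in the lysosome results was not tested.

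Summed over the 42 genes, lysosomal mRNA was highest after siPARP1 in both genotypes. The sum was 1440.1 ± 79.6 FPKM (SD, n = 3) in untreated wild-type cells, 1744.3 ± 35.2 with olaparib and 2284.7 ± 34.6 with siPARP1. In knockout cells it was 1326.7 ± 69.8, 1645.5 ± 71.5 and 2051.4 ± 19.9 FPKM. No treated library overlapped the untreated libraries of its genotype. Olaparib took the sum to 121.12% of untreated in wild-type and 124.03% in knockout cells, and siPARP1 to 158.65% and 154.62%. Each of these 4 comparisons, and knockout against wild type with siPARP1 (89.79%), gave an exact two-sided permutation p of 0.1, the smallest that 3 against 3 allows. The knockout stood at 92.13% of wild type untreated and 94.34% with olaparib (exact permutation p = 0.2 for each). Abundant genes weigh most in the sum, such as CD63 with siPARP1 (mean 327.4 FPKM in wild-type and 236.9 in knockout cells). Over the 41 tested genes the median log2 difference between knockout and wild type was -0.11 untreated, -0.08 with olaparib and -0.03 with siPARP1. As a share of the FPKM of annotated genes outside the mitochondrial genome, the 42 genes went from 0.419% to 0.646% with siPARP1 in wild-type and from 0.386% to 0.594% in knockout cells, with 0.51% and 0.48% under olaparib. In bulk RNA, fewer cells of a kind and less RNA per cell cannot be told apart.

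**Figure D1:**
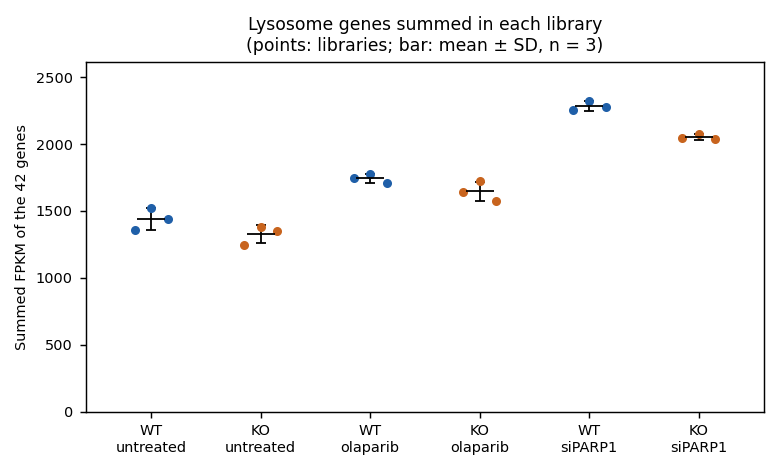
Summed FPKM of the 42 lysosome genes (vertical axis, from 0) in each library of the 6 groups; points are libraries and bars are the mean ± SD of 3. The siPARP1 libraries are the highest in both genotypes, at a mean of 2284.7 in wild-type and 2051.4 in knockout cells.

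Promoter sequences from the RefSeq table (build GRCh38.p14, 250 bases before to 50 after each gene's start) were available for 29 of the 42 genes. The core E-box CACGTG, searched on both strands, stood in 9 of these 29 (31%) and in 7.43% of all 27305 promoters. Its extended forms, the elements described for TFEB and its relatives, contain the core and were counted again: TCACGTGA stood in 5 of 29 (17.2%) against 1.04% of all, and the same letters with a G before and a C after them in 2 of 29 (6.9%) against 0.381%. The 9 genes with a core were CTSA, CTSD, CTSF, GAA, NEU1, LAMP1, CD63, MCOLN1 and ATP6V0D1. A match describes the letters and not binding. Stretches upstream of the start of 3 of the 5 genes with TCACGTGA are printed, with every core and its extended form in capitals. They were chosen by that element and by lying outside annotated exons. All lie on the plus strand and outside the exons of GENCODE release 29; the stretches of CTSA and ATP6V0D1 overlap annotated exons and are not shown. They were MCOLN1 (chr19:7522524-7522623), which holds 2 cores in 100 bases, LAMP1 (chr13:113297039-113297238), which holds 5 in 200, and GAA (chr17:80101481-80101555), which holds 2 in 75.
MCOLN1: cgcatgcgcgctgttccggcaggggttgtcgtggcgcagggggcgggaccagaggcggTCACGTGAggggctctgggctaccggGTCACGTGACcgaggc
LAMP1: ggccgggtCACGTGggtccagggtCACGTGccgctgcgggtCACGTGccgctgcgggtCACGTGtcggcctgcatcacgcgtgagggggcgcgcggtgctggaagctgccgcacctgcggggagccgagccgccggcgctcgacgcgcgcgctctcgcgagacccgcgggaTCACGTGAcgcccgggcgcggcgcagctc
GAA: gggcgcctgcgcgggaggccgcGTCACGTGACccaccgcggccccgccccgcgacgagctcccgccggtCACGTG

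With siPARP1 most of the genes had more mRNA in both genotypes. In wild-type cells 29 of 41 tested genes were higher and 5 lower at an adjusted p under 0.05, where the background was 29.5% and 22.3% of all 15764 tested genes. Knockout cells had 30 higher and 4 lower, against a background of 31.9% and 22.8%. Wild-type cells showed a median log2 change of 0.55 over the 41 and knockout cells 0.56, where all tested genes gave 0.07 in each. In both genotypes 27 genes were higher and 4 lower. How many of all tested genes were called in both genotypes was not counted, so these shared counts have no background. Leaving out any single library kept 22 of the 29 and 4 of the 5 calls in wild-type cells, and 26 of the 30 and 3 of the 4 in knockout cells. Every change was computed from log2(FPKM + 1), where the added 1 shrinks the changes of genes with low values, and p-values are limma's, adjusted over all tested genes by the Benjamini-Hochberg method.

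**Figure D2:**
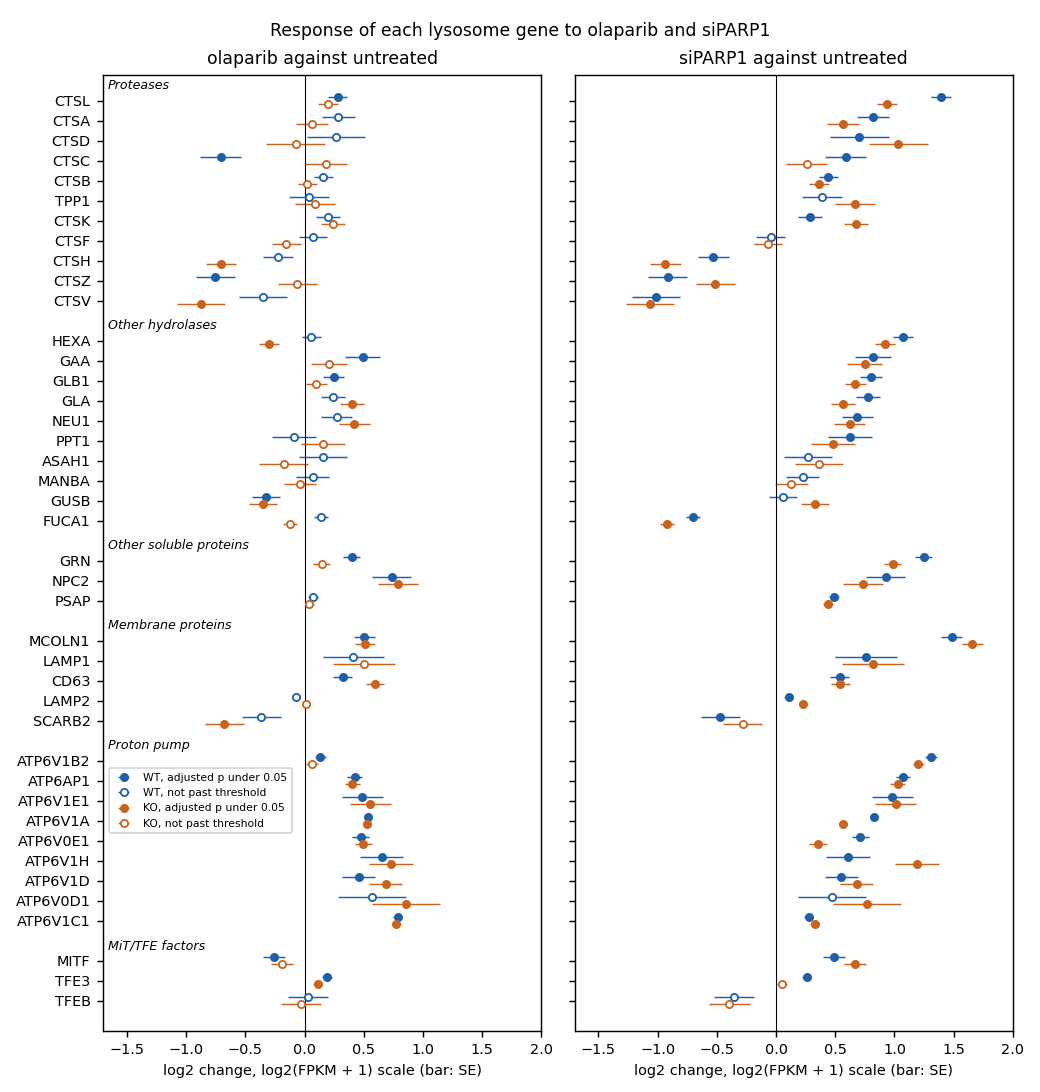
Log2 change of 41 lysosome genes (rows, grouped by role) after olaparib (left) and siPARP1 (right) against untreated cells of the same genotype, on the log2(FPKM + 1) scale; points are estimates, bars are ± SE, filled points have an adjusted p under 0.05, blue is wild type and orange knockout. With siPARP1 29 wild-type and 30 knockout changes are called higher, with olaparib 16 and 14.

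Among the proteases, siPARP1 called 6 of 11 higher and 3 lower in each genotype. Cathepsin L (CTSL), a cysteine protease that digests proteins in the lysosome and is also secreted, had the largest change of the proteases in wild-type cells. Its untreated wild-type libraries held 34.6, 29.2 and 29.7 FPKM and its siPARP1 libraries 77.4, 86.6 and 85.9. Untreated knockout libraries held 27.6, 33.2 and 26.9 FPKM and siPARP1 knockout libraries 53.7, 59.0 and 57.6. All siPARP1 libraries lay above all untreated ones, by log2 1.39 (SE 0.08, adjusted p = 4.73e-09) in wild-type and 0.94 (adjusted p = 2.62e-07) in knockout cells. For CTSL the transcripts listed in the authors' transcript table add up to only 23% of the gene's value, and summed over them the knockout change was no longer called (log2 0.58, adjusted p = 0.0839).

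Cathepsin D (CTSD), the main aspartic protease of the lysosome, held 19.0, 30.8 and 28.1 FPKM in untreated and 31.4, 50.7 and 46.7 in siPARP1 wild-type libraries. Its knockout libraries held 20.4, 29.1 and 25.9 FPKM untreated and 41.98, 44.2 and 75.3 with siPARP1. The groups did not overlap in either genotype, with log2 changes of 0.70 (adjusted p = 0.0274) and 1.03 (adjusted p = 0.00254). The wild-type call ended without untreated library 1 (adjusted p = 0.129), siPARP1 library 2 (0.105) or siPARP1 library 3 (0.0837). CTSA, a carboxypeptidase that also stabilises the sialidase NEU1 and the galactosidase GLB1, rose by 0.82 in wild-type and 0.57 in knockout cells. CTSB, an abundant cysteine protease, rose by 0.44 and 0.36. Over listed transcripts, 65.9% of the gene's value for CTSA and 31.9% for CTSB, the CTSA call in knockout cells (0.62, adjusted p = 0.123) and the CTSB call in wild-type cells (0.39, adjusted p = 0.131) were lost. CTSK was called in both (0.29 and 0.68) at levels of at most 1.30 FPKM, and its wild-type call ended without any of 4 libraries. Outside the knockout siPARP1 libraries CTSK held at most 0.876 FPKM. It thus passed the filter only through a group in which it was called higher, and the counts given here include it. CTSC, which activates granule serine proteases, was called in wild-type cells (0.59, adjusted p = 0.0118), but not without siPARP1 library 1 (0.0556) or 3 (0.0535), nor over listed transcripts (0.09, adjusted p = 0.779). TPP1, a tripeptidyl peptidase, was called in knockout cells (0.67, adjusted p = 0.00365) and not in wild-type cells (0.39, adjusted p = 0.0657).

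The proteases with less mRNA after siPARP1 were CTSV, CTSZ and CTSH. CTSV, a close relative of cathepsin L, held 4.13, 5.24 and 6.02 FPKM in untreated and 2.71, 1.88 and 1.55 in siPARP1 wild-type libraries, and 5.73, 6.15 and 5.87 against 1.73, 2.98 and 2.32 in knockout libraries. The siPARP1 values lay below all untreated ones, with log2 changes of -1.01 (SE 0.20, adjusted p = 0.000646) and -1.07 (adjusted p = 0.000386). The transcripts listed for CTSV carried 19.9% of its value, and over them the fall was -0.21 (adjusted p = 0.477) in wild-type and -0.06 (adjusted p = 0.85) in knockout cells. CTSZ, a carboxypeptidase, fell by 0.92 and 0.51 on the log2 scale, but its listed transcripts carry 19.4% of its value and gave adjusted p = 0.0955 and 0.128. Its knockout call also ended without siPARP1 library 3 (adjusted p = 0.0696). CTSH, an aminopeptidase, went from a mean of 1.88 to 0.995 FPKM in wild-type and from 1.57 to 0.361 in knockout cells. Its wild-type call was lost over listed transcripts (-0.41, adjusted p = 0.0676).

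Of the 10 glycosidases and lipid-handling enzymes, siPARP1 called 6 higher in wild-type and 7 in knockout cells, and 1, FUCA1, lower in both. HEXA, the alpha subunit of the hexosaminidase that degrades GM2 ganglioside, held 22.7, 27.001 and 21.96 FPKM untreated and 49.4, 55.7 and 48.8 with siPARP1 in wild-type libraries. In knockout libraries it held 30.0, 33.2 and 28.9, and 53.7, 60.2 and 62.9 FPKM. The siPARP1 libraries did not overlap the untreated ones, at 214.9% and 192% of their means (log2 1.075 and 0.92, adjusted p = 7.99e-08 and 3.55e-07). GLB1, a beta-galactosidase whose activity is widely used as a marker of senescence, rose by 0.80 and 0.67. GAA, which degrades lysosomal glycogen, rose by 0.82 and 0.75, and GLA, an alpha-galactosidase, by 0.78 and 0.56. NEU1, a sialidase, rose by 0.68 and 0.62 at levels of at most 1.85 FPKM. Its untreated libraries held at most 0.779 FPKM, so it passed the filter only through treated libraries. PPT1, which removes palmitate from proteins, was called in both genotypes, but not without wild-type siPARP1 library 2 (adjusted p = 0.0589) or 3 (0.0564) nor, in knockout cells, without any of 4 libraries. The glucuronidase GUSB was called in knockout cells alone (0.33, adjusted p = 0.0272), and not without any of 3 libraries. The mannosidase MANBA and the ceramidase ASAH1 were not called in either genotype.

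FUCA1, the lysosomal fucosidase, moved the other way. Its untreated wild-type libraries held 11.5, 11.2 and 11.1 FPKM and its siPARP1 libraries 6.21, 6.57 and 6.88. Knockout libraries held 13.0, 14.8 and 12.5 FPKM untreated and 6.41, 6.74 and 6.67 with siPARP1. The siPARP1 values sat close together in both genotypes and below every untreated value, with log2 changes of -0.70 (SE 0.06, adjusted p = 1.6e-07) and -0.92 (adjusted p = 6.89e-09).

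All 3 other soluble proteins were higher with siPARP1 in both genotypes. Progranulin (GRN), a secreted and lysosomal glycoprotein, held 46.9, 45.5 and 49.1 FPKM in untreated and 116, 109 and 114 in siPARP1 wild-type libraries. Knockout libraries had 49.7, 53.3 and 56.7, and 93.7, 115 and 112 FPKM. The siPARP1 levels were 240.3% and 200.4% of untreated, without overlap (log2 1.248 and 0.99, adjusted p = 2.78e-09 and 2.79e-08). NPC2, which carries cholesterol out of the lysosome, rose by 0.93 and 0.73. PSAP, the precursor of the saposins that help sphingolipid breakdown, was among the most abundant of the genes and rose by 0.49 in wild-type (mean 195.9 to 275.5 FPKM) and 0.44 in knockout cells (176.9 to 240.2 FPKM).

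Among the 5 membrane proteins, MCOLN1 had the largest change of all 41 genes in both genotypes. It encodes the lysosomal calcium channel TRPML1. Its wild-type libraries held 5.69, 6.30 and 5.19 FPKM untreated and 16.1, 17.8 and 19.6 with siPARP1. Its knockout libraries held 5.62, 6.98 and 6.14 FPKM untreated and 21.2, 23.6 and 20.7 with siPARP1. The siPARP1 libraries stood at 311.5% and 349.3% of untreated with no overlap (log2 1.49, SE 0.09, adjusted p = 4.16e-09, and 1.66, adjusted p = 1.06e-09). CD63, a tetraspanin of late endosomes and exosomes, rose by 0.54 in each genotype. LAMP1, a heavily glycosylated protein that coats the lysosomal membrane, held 65.5, 103 and 98.3 FPKM in untreated and 193, 128 and 132 in siPARP1 wild-type libraries. The knockout held 67.1, 104 and 69.0 FPKM untreated and 186, 119.7 and 121 with siPARP1. The groups did not overlap, but the values of both were widely spread. The LAMP1 changes of 0.76 and 0.82 were not called without untreated library 1 or siPARP1 library 1 of wild-type cells (adjusted p = 0.116 and 0.11), nor without untreated library 1 or 3 or siPARP1 library 1 of knockout cells (0.0607, 0.0559 and 0.0788). LAMP2 rose by 0.23 in knockout cells. Its wild-type change of 0.11 (adjusted p = 0.0176) lost its call without any of 3 libraries (adjusted p from 0.0504 to 0.0563), and with median-of-ratios scaling it was 0.02 (adjusted p = 0.747). SCARB2, an integral protein of the lysosomal membrane, was the member of this group called lower in wild-type cells (-0.47, adjusted p = 0.0264). That call ended without untreated library 2 (0.137) or siPARP1 library 1 (0.0694) or 3 (0.0597), and the knockout change was -0.28 (adjusted p = 0.164).

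Nearly all proton pump genes had more mRNA: with siPARP1 8 of 9 were higher in wild-type and 9 of 9 in knockout cells, and none was lower in either. ATP6V1B2, a nucleotide-binding B subunit of V1, held 32.2, 33.5 and 29.3 FPKM untreated and 82.2, 79.5 and 78.3 with siPARP1 in wild-type libraries. In knockout libraries it held 40.5, 41.3 and 39.0, and 90.3, 93.9 and 97.6 FPKM. The siPARP1 libraries stood far above the untreated ones, at 252.5% and 233.4% (log2 1.31, SE 0.05, adjusted p = 4.37e-11, and 1.20, adjusted p = 6.5e-11). The accessory subunit ATP6AP1 held 22.6, 25.1 and 22.5 FPKM in untreated and 47.8, 49.5 and 53.6 in siPARP1 wild-type libraries, and 23.7, 27.1 and 24.6 against 50.7, 54.0 and 51.9 in knockout libraries. Neither genotype overlapped (log2 1.07 and 1.03). ATP6V1E1, part of the peripheral stalk, held 65.0, 60.5 and 42.5 FPKM in untreated wild-type libraries and 99.1, 139 and 96.1 with siPARP1. Its knockout libraries held 47.8, 42.6 and 56.3 FPKM, and 99.7, 114 and 84.3 with siPARP1. The siPARP1 libraries lay above the untreated ones at 198.8% and 203.6% of their means (log2 0.98 and 1.01, adjusted p = 0.000237 and 0.000166).

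The other pump genes gave smaller changes in wild-type cells. ATP6V1A, the catalytic A subunit, rose by 0.83 in wild-type and 0.57 in knockout cells, and ATP6V0E1, a small V0 subunit, by 0.71 and 0.35. ATP6V1D, of the central stalk, rose by 0.55 and 0.68. ATP6V1C1, a V1 subunit that governs joining of the sectors, rose by 0.28 and 0.33. ATP6V1H, a regulatory V1 subunit, held 22.03, 23.1 and 15.5 FPKM in untreated and 24.2, 36.2 and 33.4 in siPARP1 wild-type libraries. The knockout held 18.5, 22.2 and 13.9, and 39.6, 44.2 and 42.3 FPKM. The knockout siPARP1 values lay above every wild-type value, but the difference between the log2 changes (0.61 and 1.19) was not called (adjusted p = 0.238), and the wild-type call ended without untreated library 3 (0.0702) or siPARP1 library 2 (0.0594). ATP6V0D1, a V0 subunit, varied widely between replicates, from 22.8 to 56.8 FPKM in untreated knockout libraries. It was called in knockout cells (0.77, adjusted p = 0.0347), but not without untreated library 1 (0.192) or siPARP1 library 2 (0.0863) or 3 (0.0932), nor in wild-type cells (0.47, adjusted p = 0.186).

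**Figure D3:**
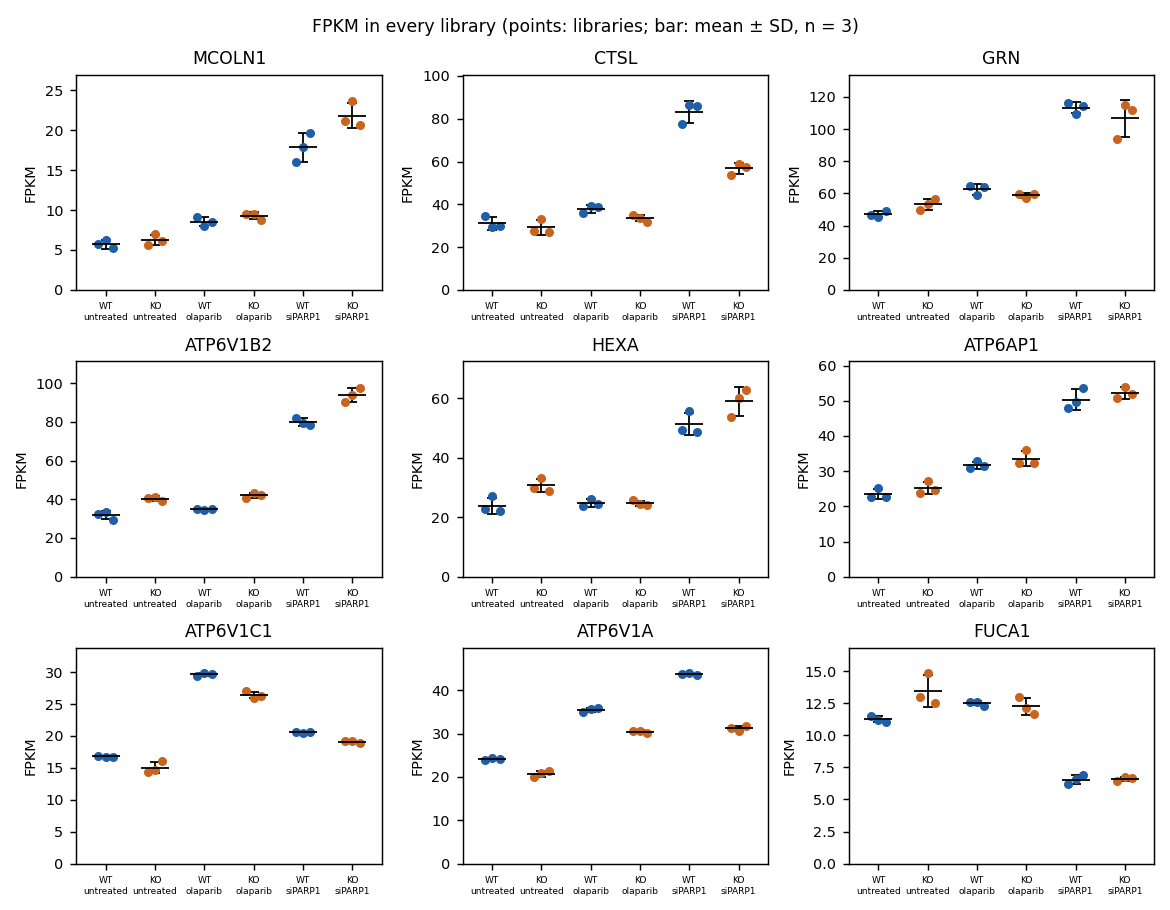
FPKM (vertical axes, from 0) of 9 lysosome genes in every library of the 6 groups, with points for libraries and bars for the mean ± SD of 3. MCOLN1, CTSL, GRN, ATP6V1B2, HEXA and ATP6AP1 are highest with siPARP1, ATP6V1C1 is highest with olaparib, and FUCA1 is lowest with siPARP1.

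With olaparib most of the proton pump genes were higher and few of the enzymes were. In wild-type cells 16 of 41 genes were higher and 4 lower, where the background was 24.9% and 20.4% of all tested genes. Knockout cells had 14 higher and 5 lower, against 25.2% and 22%. The median log2 change was 0.20 and 0.11, and that of all tested genes 0.03 in each. Of the 9 pump genes 8 were higher in each genotype, with a median change of 0.49 and 0.56. Among the 21 proteases, glycosidases and lipid enzymes tested, 3 were higher in wild-type and 2 in knockout cells. The calls shared by both genotypes were 11 higher and 1 lower, again without a shared count over all tested genes to set beside them. Without any single library, 9 of the 16 and 2 of the 4 wild-type calls and 10 of the 14 and 4 of the 5 knockout calls were kept.

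Of the pump genes, ATP6V1C1 had the largest change in wild-type cells. Its wild-type libraries held 16.9, 16.7 and 16.8 FPKM untreated and 29.5, 29.9 and 29.7 with olaparib. Its knockout libraries held 14.4, 14.7 and 16.02, and 27.02, 26.0 and 26.2 FPKM. The replicates of each group nearly coincided and olaparib stood at 176.6% and 175.6% of untreated (log2 0.79, SE 0.04, adjusted p = 9.12e-10, and 0.77, adjusted p = 9.6e-10). ATP6V1A held 23.9, 24.4 and 24.2 FPKM untreated and 35.0, 35.5 and 35.8 with olaparib in wild-type libraries, and 20.0, 20.8 and 21.4 against 30.5, 30.6 and 30.0 in knockout libraries. Its changes were almost the same in size (0.54 and 0.53), again without overlap. ATP6V1H held 34.0, 34.2 and 27.8 FPKM with olaparib in wild-type and 34.0, 26.1 and 31.4 in knockout libraries, all above the untreated values given above (0.65 and 0.73), although the wild-type call ended without untreated library 3 (adjusted p = 0.0541). ATP6V1D held 30.3, 33.4 and 25.8 FPKM untreated and 45.9, 41.5 and 36.5 with olaparib in wild-type libraries, and 21.6, 26.4 and 31.8 against 44.1, 40.5 and 44.2 in knockout libraries. Its groups did not overlap (0.46 and 0.69), but the wild-type call ended without untreated library 3 (0.0726) or olaparib library 1 (0.0656). ATP6V0E1 rose by 0.47 and 0.49 and ATP6AP1 by 0.42 and 0.40, the latter not called over listed transcripts in wild-type cells (0.31, adjusted p = 0.118). ATP6V1E1 was called in both genotypes (0.49 and 0.56), but not without untreated library 3 or olaparib library 2 of wild-type cells (adjusted p = 0.161 and 0.113), nor without library 2 of either knockout group (0.067 and 0.0537). ATP6V1B2 was called in wild-type cells alone (0.13, adjusted p = 0.0384) and lost that call without any of 5 libraries. ATP6V0D1 was called in knockout cells (0.86, adjusted p = 0.0237) with overlapping groups and not without untreated library 1 (0.12) or olaparib library 2 (0.112).

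Outside the pump, NPC2, MCOLN1 and CD63 were higher with olaparib in both genotypes and no single library ended these calls. NPC2 held 63.8, 93.6 and 86.7 FPKM untreated and 134, 139.7 and 129 with olaparib in wild-type libraries. Knockout libraries had 60.3, 71.1 and 66.8, and 129, 132 and 88.7 FPKM. Olaparib libraries lay above untreated ones in both (log2 0.74 and 0.79, adjusted p = 0.00219 and 0.00122). MCOLN1 held 9.10, 8.02 and 8.47 FPKM with olaparib in wild-type and 9.51, 9.56 and 8.81 in knockout libraries. These values also cleared all untreated ones, at 148.9% and 148.8% of their means (log2 0.50 and 0.51, adjusted p = 0.00029 and 0.000243). CD63 held 209, 224 and 244 FPKM untreated and 290.4, 261 and 295 with olaparib in wild-type libraries, and 143, 177 and 169 against 258, 246 and 231 in knockout libraries. The groups were apart in both genotypes (0.32 and 0.59). GRN was called in wild-type cells (0.40, adjusted p = 0.000355) and not in knockout cells (0.15, adjusted p = 0.108). GAA was called in wild-type cells (0.49, adjusted p = 0.0163), but not without untreated library 1 (0.0552) or olaparib library 2 (0.0529). GLA was called in knockout cells (0.40, adjusted p = 0.00447). Wild-type calls of CTSL (0.28) and GLB1 (0.25) and the knockout call of NEU1 (0.42) each ended without some library.

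The genes called lower under olaparib were mostly not the same in the 2 genotypes, and the difference itself was called for none of them. In wild-type cells CTSZ held 13.6, 16.998 and 13.7 FPKM untreated and 7.56, 8.33 and 9.05 with olaparib (-0.76, adjusted p = 0.00172), with an adjusted p of 0.185 over its listed transcripts. In knockout cells it held 9.74, 11.03 and 11.1, and 11.6, 6.95 and 12.7 FPKM, which overlap (-0.06, adjusted p = 0.792). CTSC held 22.5, 23.6 and 26.9 FPKM untreated and 18.8, 14.9 and 10.7 with olaparib in wild-type libraries, which were apart (-0.71, adjusted p = 0.00425). In knockout cells the calls were CTSV, SCARB2, CTSH, HEXA and GUSB. CTSV held 3.61, 3.04 and 1.88 FPKM with olaparib, below all untreated knockout libraries (-0.87, adjusted p = 0.00232), although not over its listed transcripts (-0.55, adjusted p = 0.0683). SCARB2 held 19.5, 18.1 and 19.6 FPKM untreated and 8.08, 13.8 and 13.7 with olaparib, again apart (-0.68, adjusted p = 0.00338). CTSH went from a mean of 1.57 to 0.586 FPKM. HEXA fell by 0.30 (adjusted p = 0.00847), but not over listed transcripts (adjusted p = 0.292). GUSB was called in both genotypes (-0.32 and -0.35), and each call ended without any of 4 libraries.

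Olaparib and siPARP1 differed in time as well as in agent, so their changes stand side by side without a test, and both were set against the same untreated libraries. ATP6V1C1 changed by 0.79 with olaparib and 0.28 with siPARP1 in wild-type cells. ATP6V1B2 changed by 0.13 and 1.31, HEXA by 0.06 and 1.075, GRN by 0.40 and 1.248, CTSL by 0.28 and 1.39, and FUCA1 by 0.14 and -0.70. CTSC changed by -0.71 and 0.59. The order of the pump genes thus differed, with ATP6V1C1 first under olaparib and last of the 9 under siPARP1 in both genotypes except that ATP6V0D1 stood above it under olaparib in knockout cells.

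In untreated cells the knockout had more mRNA than wild type for 5 of 41 genes and less for 6, near the background of 9.58% and 10.9%. GLB1, on chromosome 3, differed most: 17.98, 19.6 and 17.8 FPKM in wild-type and 30.1, 26.3 and 31.3 in knockout libraries. Every knockout library lay above every wild-type one (158.3% of wild type, log2 0.63, SE 0.09, adjusted p = 0.000141). ATP6V1B2 held 40.5, 41.3 and 39.0 FPKM in the knockout against 32.2, 33.5 and 29.3 (0.34, adjusted p = 0.000184). HEXA was also higher (0.35, adjusted p = 0.00787), though not over listed transcripts (0.30, adjusted p = 0.389) or with only the groups compared (0.0652). FUCA1 was higher too (0.23, adjusted p = 0.0106), but not with only the groups compared (0.0913). So was GAA (0.48, adjusted p = 0.0373), whose 6.96, 7.52 and 6.25 FPKM lay above 4.33, 5.20 and 4.50 in wild type. The GAA call ended without wild-type library 1 (0.111) or 3 (0.0994) or knockout library 1 (0.0857) or 2 (0.117).

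The genes lower in the untreated knockout were led by CD63, at 143, 177 and 169 FPKM against 209, 224 and 244 in wild type (72.1%, log2 -0.47, adjusted p = 0.000635). ATP6V1A held 20.0, 20.8 and 21.4 FPKM against 23.9, 24.4 and 24.2, a small and even difference (-0.21, SE 0.03, adjusted p = 0.000422). LAMP2 (-0.14), ATP6V1C1 (-0.15) and PSAP (-0.15) differed by less, and each lost its call when FPKM was rescaled to TPM (adjusted p = 0.114, 0.112 and 0.212). The PSAP call also ended without wild-type library 2 (0.0715) or 3 (0.053) or knockout library 1 (0.0501) or 3 (0.0526), and the ATP6V1C1 call without knockout library 1 (0.059). GLA held 12.1, 11.7 and 9.74 FPKM in wild-type and 8.92, 9.66 and 8.03 in knockout libraries (-0.30, adjusted p = 0.0487). The libraries did not overlap, but the call ended without any of 4 libraries and over listed transcripts the difference turned to 0.19 (adjusted p = 0.632).

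With olaparib 3 genes were higher in the knockout and 5 lower, against a background of 5.68% and 7.16%, and with siPARP1 3 were higher and 8 lower, against 11.8% and 11.2%. GLB1 was higher under both, at 30.7, 37.0 and 27.02 against 22.2, 21.4 and 22.7 FPKM with olaparib (0.48, adjusted p = 0.00203) and 45.5, 47.7 and 47.5 against 32.8, 32.0 and 33.9 with siPARP1 (0.50, adjusted p = 0.000984). ATP6V1B2 was higher under both (0.27 and 0.23), and ATP6V1A lower (-0.22 and -0.47, adjusted p = 0.000591 and 2.18e-07). CD63 was lower with siPARP1 (-0.47, adjusted p = 0.000668), while its difference with olaparib was -0.20 (adjusted p = 0.121). PSAP was lower under both (-0.18 and -0.20), the first not called without wild-type olaparib library 2 (0.0502) or after rescaling to TPM (0.143). ATP6V1C1 was lower with olaparib (-0.16, adjusted p = 0.0123), but not after rescaling to TPM (0.128).

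Under olaparib CTSC differed most between genotypes. It held 18.8, 14.9 and 10.7 FPKM in wild-type and 36.1, 31.2 and 31.0 in knockout libraries, 221.6% of wild type (log2 1.13, SE 0.18, adjusted p = 0.000585), where the untreated groups held 22.5 to 26.9 and 27.2 to 30.6 FPKM. CTSF held 4.65, 5.15 and 5.502 FPKM in wild-type and 3.50, 3.92 and 3.19 in knockout libraries with olaparib (-0.43, adjusted p = 0.0294), a call that ended without any of 4 libraries and after rescaling to TPM (0.0535). CTSH was lower in the knockout with olaparib (-0.64) and with siPARP1 (-0.57), at levels under 2 FPKM, and the second call was lost over listed transcripts (adjusted p = 0.084).

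Under siPARP1 CTSL, GLA and ATP6V0E1 were lower in the knockout. CTSL held 77.4, 86.6 and 85.9 FPKM in wild-type and 53.7, 59.0 and 57.6 in knockout libraries (68.2%, log2 -0.54, adjusted p = 0.000277), but was not called over listed transcripts (-0.60, adjusted p = 0.129). GLA held 19.8, 20.9 and 18.8 against 15.3, 13.2 and 12.4 FPKM (-0.52, adjusted p = 0.00189), and over listed transcripts the difference was -0.40 (adjusted p = 0.233). ATP6V0E1 held 101, 94.8 and 109.8 against 71.2, 69.3 and 75.2 FPKM (-0.50, adjusted p = 0.000183). In all of these the genotypes did not overlap. MCOLN1 was higher in the knockout (0.28, adjusted p = 0.0338), a call that ended without wild-type siPARP1 library 1 (0.14) or 2 (0.0735) or knockout siPARP1 library 1 (0.0565) or 2 (0.128).

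**Figure D4:**
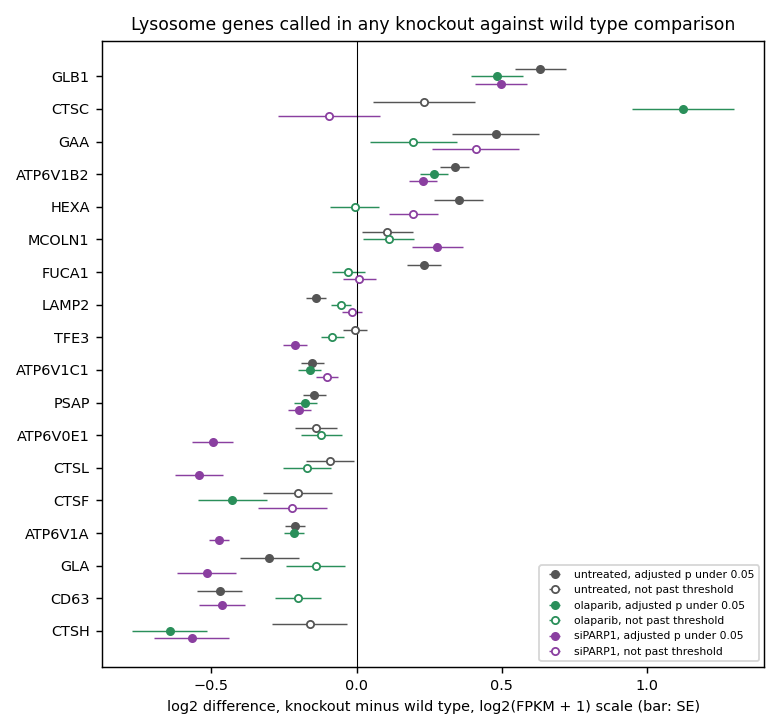
Log2 difference between knockout and wild type, on the log2(FPKM + 1) scale, for the 18 lysosome genes called in any of the untreated (grey), olaparib (green) and siPARP1 (purple) comparisons; points are estimates, bars are ± SE and filled points have an adjusted p under 0.05. GLB1 and ATP6V1B2 lie to the right and ATP6V1A and PSAP to the left in all 3 comparisons.

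Some of these differences were shared by neighbouring genes. The median difference between knockout and wild type over the 10 Mb stretch of chromosome that holds GLB1 was 0.30 untreated, 0.32 with olaparib and 0.45 with siPARP1. With stretch medians removed from every gene, the GLB1 difference was 0.34 (adjusted p = 0.0191), 0.17 (0.323) and 0.05 (0.779). For ATP6V1B2 the stretch medians were 0.15, 0.12 and 0.25, and the remaining differences 0.19 (adjusted p = 0.0151), 0.14 (0.0965) and -0.02 (0.845). HEXA untreated went to 0.20 (adjusted p = 0.134), MCOLN1 with siPARP1 to 0.07 (0.676) and LAMP2 untreated to -0.08 (0.168). CD63 untreated stayed called at -0.41 (adjusted p = 0.00258) and ATP6V1A at -0.13 (0.0147). Why genes of these stretches differed together was not tested.

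The response to siPARP1 itself differed between genotypes for 2 of 41 genes, both rising less in the knockout, where 2.52% of all tested genes had a lower and 2.74% a higher response. For ATP6V1A the siPARP1 change was smaller in the knockout by 0.26 (log2 difference -0.26, SE 0.05, adjusted p = 0.00522), and no left-out library ended the call. Its siPARP1 libraries held 43.6, 43.9 and 43.5 FPKM in wild-type and 31.4, 30.5 and 31.7 in knockout cells. For CTSL the difference was -0.45 (SE 0.12, adjusted p = 0.0392), and leaving out any of 7 of the 12 libraries involved ended the call, with adjusted p from 0.0655 to 0.0897. Over listed transcripts the CTSL difference was -1.13 and was not called (adjusted p = 0.109). TFE3 (-0.21, adjusted p = 0.054) and ATP6V0E1 (-0.36, adjusted p = 0.0606) were next. At an unadjusted p under 0.05 there were 3 genes with a higher and 7 with a lower response. For olaparib limma called 0 of 41, where 1.4% of all genes had a higher and 1.66% a lower response. At an unadjusted p under 0.05 there were 3 higher and 4 lower, and the smallest adjusted p was 0.0716, for CTSC.

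The mRNAs of the transcription factors differed by at most 0.67 in log2 between any groups compared. TFE3 was the most abundant and held 30.0, 29.5 and 30.3 FPKM untreated, 35.1, 34.7 and 32.9 with olaparib and 34.8, 36.7 and 36.5 with siPARP1 in wild-type libraries. In knockout libraries it held 28.6, 30.8 and 30.0, then 32.9, 32.4 and 31.5, then 30.2, 31.6 and 30.9 FPKM. Both treatments left wild-type libraries above untreated ones (0.19 and 0.26, adjusted p = 0.0017 and 9.76e-05). In knockout cells the olaparib change of 0.11 (adjusted p = 0.0388) ended without any of 4 libraries and the siPARP1 change was 0.05 (adjusted p = 0.312), and with siPARP1 TFE3 was lower in the knockout than in wild type (-0.21, adjusted p = 0.00173).

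MITF, better known from melanocytes, held 2.66, 2.67 and 2.45 FPKM untreated, 1.76, 2.10 and 2.18 with olaparib and 3.97, 4.22 and 3.96 with siPARP1 in wild-type libraries. In knockout libraries it held 1.93, 2.32 and 2.49, then 2.01, 1.94 and 1.57, then 3.54, 4.75 and 4.20 FPKM. It was higher with siPARP1 in both genotypes (0.49 and 0.67, adjusted p = 0.00048 and 2.76e-05). The olaparib change in wild-type cells was -0.26 (adjusted p = 0.0379), a call that ended without any of 4 libraries. TFEB held 1.16, 1.56 and 1.48 FPKM untreated, 1.79, 1.05 and 1.53 with olaparib and 0.585, 1.13 and 0.921 with siPARP1 in wild-type libraries. The knockout had 1.384, 1.86 and 1.06, then 0.852, 1.91 and 1.44, then 0.773, 0.964 and 0.774 FPKM. TFEB was not called in any comparison by the fit used throughout, with siPARP1 changes of -0.36 (adjusted p = 0.0941) and -0.39 (adjusted p = 0.0648). Over listed transcripts TFEB was called lower with siPARP1 in both genotypes (-0.52 and -0.64, adjusted p = 0.0448 and 0.0159). In knockout cells it was also called lower with median-of-ratios scaling (-0.45, adjusted p = 0.0372) and without untreated library 3 (-0.51, adjusted p = 0.0343). These are mRNA levels, and the location of the proteins was not measured.

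The genes with and without a core E-box in their promoter window were set side by side. With siPARP1, 7 of the 9 genes with CACGTG were higher and 0 lower in wild-type cells (median log2 change 0.70), and 12 of 20 without it were higher and 5 lower (0.52). In knockout cells the counts were 8 higher and 0 lower of 9 (0.75), and 12 higher and 4 lower of 20 (0.52). With olaparib the medians were 0.32 and 0.09 in wild-type and 0.42 and 0.11 in knockout cells. Of all tested genes, siPARP1 called 29.5% higher and 22.3% lower in wild-type and 31.9% and 22.8% in knockout cells. The same split by promoter was not made for all genes, and the differences between these sets were not tested.

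LAMP2 is spliced into forms with different tails, of which LAMP2A serves chaperone-mediated autophagy. These transcripts were looked at after their values were seen. The p-values of the share given below therefore describe these libraries and support no conclusion. LAMP2A took 27.9% ± 0.495 (SD, n = 3) of LAMP2A and LAMP2B together in untreated wild-type cells, 37.8% ± 2.00 with olaparib and 32.0% ± 2.06 with siPARP1. In knockout cells the shares were 31.6% ± 1.02, 39.1% ± 0.831 and 33.1% ± 1.07. With olaparib LAMP2A went from a mean of 16.1 to 20.6 FPKM and LAMP2B from 41.5 to 33.9 in wild-type cells, while the gene as a whole was not called (-0.08, adjusted p = 0.0839), except with median-of-ratios scaling (-0.13, adjusted p = 0.00986). The exact two-sided permutation p of the share was 0.1, the smallest that 3 against 3 allows, for olaparib in both genotypes, siPARP1 in wild-type cells and knockout against wild type untreated. It was 0.2 for siPARP1 in knockout cells, and 0.4 and 0.6 for the genotypes with olaparib and siPARP1 (exact permutation tests).

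**Figure D5:**
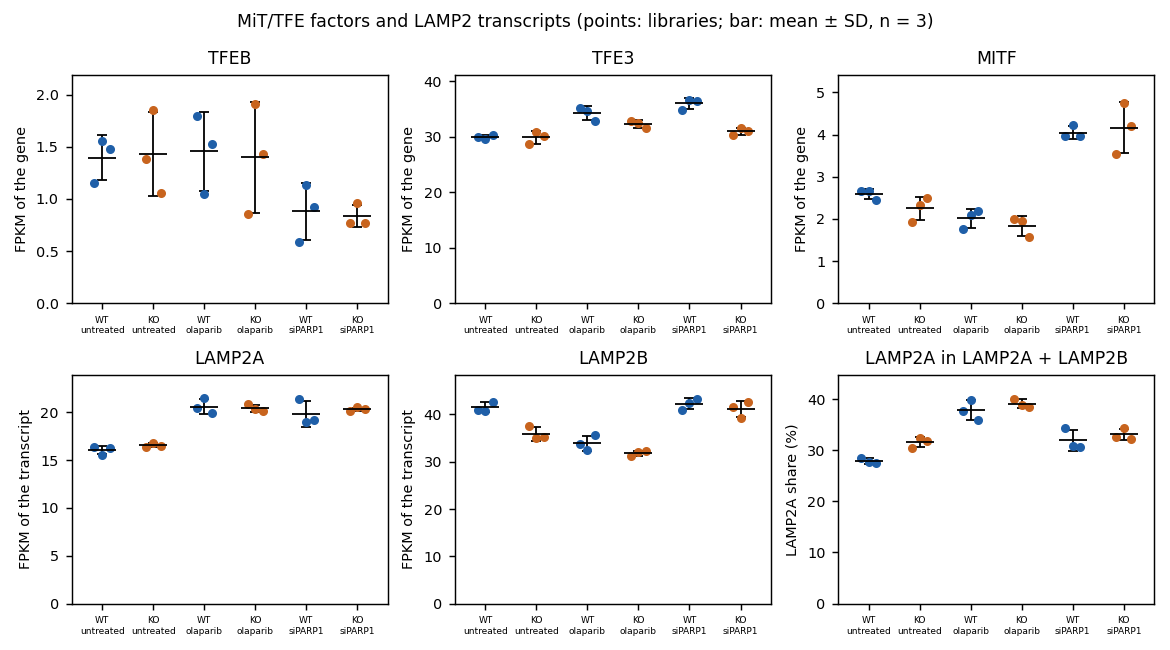
FPKM (vertical axes, from 0) of TFEB, TFE3 and MITF and of the LAMP2A and LAMP2B transcripts, and LAMP2A as a percentage of LAMP2A plus LAMP2B, in every library; points are libraries and bars the mean ± SD of 3. The LAMP2A share is highest with olaparib, at a mean of 37.8% in wild-type and 39.1% in knockout cells.

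Other genes of the pathway were counted from 7 lists that do not contain the 42 genes. Their siPARP1 counts stand against the background of 29.5% higher and 22.3% lower in wild-type and 31.9% and 22.8% in knockout cells. With siPARP1, 8 of 13 tested further pump genes were higher and 1 lower in wild-type cells, and 10 were higher and 1 lower in knockout cells. ATP6V1G1, a stalk subunit, rose by 1.69 and 1.39, ATP6V0B, of the proton-carrying ring, by 1.46 and 1.85, and RNASEK, a V0-associated protein, by 1.51 and 1.43. Of 31 further hydrolases and cofactors 15 were higher and 5 lower in wild-type, and 17 and 7 in knockout cells, with the sulfamidase SGSH at 1.21 and 1.32. Of 23 further membrane proteins 16 and 15 were higher and 2 and 2 lower, led by the chloride and proton exchanger CLCN7 (1.62 and 1.80), the lysophospholipid transporter SPNS1 (1.28 and 1.62) and the cystine transporter CTNS (1.28 and 1.55). Of 16 genes of mannose 6-phosphate and vesicle sorting 10 and 9 were higher and 0 and 1 lower, among them GNPTG (1.26 and 1.40) and NAGPA (1.15 and 1.36), which make the mannose 6-phosphate tag.

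Of 22 autophagy genes 13 and 12 were higher with siPARP1 and 0 lower. SQSTM1, the cargo receptor p62 and a known target of the same factors, held 99.7, 103 and 96.5 FPKM in untreated and 379, 432 and 397 in siPARP1 wild-type libraries. Its knockout libraries held 46.7, 43.0 and 44.3 FPKM untreated and 181, 179 and 191 with siPARP1. The groups were far apart, and the changes of 2.00 and 2.02 (adjusted p = 2.18e-12 and 1.34e-12) were alike in size although the knockout stood at 44.8% of wild type untreated (-1.14, adjusted p = 5.58e-09), 47.3% with olaparib and 45.6% with siPARP1. Of 22 regulators and targets of the MiT/TFE factors 16 and 17 were higher and 1 and 1 lower with siPARP1. RRAGC and RRAGB, Rag GTPases that recruit mTORC1 to the lysosome, rose by 1.20 and 1.12 in wild-type and by 1.22 and 1.5 in knockout cells. Of 3 tested cystatins, inhibitors of cathepsins, 1 was higher and 0 lower in each genotype: CSTB rose by 0.71 and 0.84.

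The olaparib counts stand against a background of 24.9% higher and 20.4% lower in wild-type and 25.2% and 22% in knockout cells, and some, such as the 8 of 31 hydrolases in wild-type cells (25.8%), were near it. With olaparib 7 and 6 of the 13 further pump genes were higher in wild-type and knockout cells and 1 and 1 lower, as were 8 and 11 of the 31 hydrolases (4 and 5 lower) and 8 and 8 of the 23 membrane proteins (2 and 3 lower). IDUA, an iduronidase, rose by 1.35 and 1.04 and OSTM1, the partner of CLCN7, by 0.86 and 0.99, while CD68, a membrane glycoprotein used as a macrophage marker, fell by 0.78 and 0.83. With siPARP1 CD68 instead rose in wild-type cells, from 10.5, 10.1 and 10.9 to 19.5, 21.02 and 24.1 FPKM (0.96, adjusted p = 5.69e-07), and was not called in knockout cells (0.19, adjusted p = 0.0908). SQSTM1 rose by 1.05 and 1.11. Of the sorting genes 10 and 7 were higher and 1 and 2 lower, of the autophagy genes 9 and 7 higher and 1 and 1 lower, of the MiT/TFE regulators and targets 9 and 10 higher and 1 and 1 lower, and of the 3 cystatins 1 and 1 higher and 1 and 1 lower.

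Between genotypes the background was 9.58% higher and 10.9% lower untreated, 5.68% and 7.16% with olaparib, and 11.8% and 11.2% with siPARP1, and several list counts, such as 3 and 3 of 31 hydrolases untreated, were near it. The regulator and target list had 0 genes higher and 7, 6 and 6 of 22 lower in the knockout untreated, with olaparib and with siPARP1, and the autophagy list 0, 0 and 1 higher and 5, 5 and 6 of 22 lower. Left-out libraries were examined for up to 3 called genes per list and comparison. Untreated calls of WIPI2 and YWHAB ended without any of 5 and of 4 libraries. With siPARP1 those of TAX1BP1 and ATG12 ended without any of 4 and of 3. No left-out library ended the calls of SQSTM1 or GPNMB. GPNMB, a glycoprotein induced by MITF and TFE3, held 1.13, 1.499 and 1.21 FPKM in wild-type and 0.0193, 0.157 and 0.163 in knockout untreated libraries (-1.03, adjusted p = 0.000707), and differed by -1.57 and -1.63 with olaparib and siPARP1. GM2A, the cofactor of HEXA, was lower by 0.49, 0.34 and 0.59 in log2. SUMF1, which activates sulfatases, was higher by 0.49, 0.54 and 0.63, but by 0.09, 0.15 and 0.17 with stretch medians removed (adjusted p = 0.589, 0.386 and 0.221). The counts of the other lists in the knockout, higher and lower in the same order, were 1 and 3, 0 and 3, and 1 and 3 for pump genes, 3 and 3, 1 and 3, and 8 and 4 for hydrolases, 2 and 5, 2 and 4, and 3 and 4 for membrane proteins, 0 and 3, 0 and 2, and 3 and 3 for sorting genes, and 1 and 0, 0 and 0, and 2 and 0 for the 3 cystatins. Over all tested genes 2.74% had a higher and 2.52% a lower siPARP1 response in the knockout. This response differed between genotypes for CD68 (-0.77, adjusted p = 0.00254) and GGA1, a sorting adaptor (0.53, adjusted p = 0.009). It also differed for MAP1LC3B, which marks autophagosomes (0.42, adjusted p = 0.009), RRAGD (-0.40, adjusted p = 0.0169) and ATP6V1G1 (-0.30, adjusted p = 0.0174). No left-out library ended these calls, while those of PLBD2, VPS18 and FLCN ended without some library. The ATP6V1G1 call was lost after rescaling to TPM and over listed transcripts. List counts, higher and lower, were 0 and 1 of 13 pump genes and 1 and 0 of 31 hydrolases. They were 0 and 1 of 23 membrane proteins, 2 and 0 of 16 sorting genes and 1 and 0 of 22 autophagy genes. Regulators and targets gave 1 and 1 of 22, and cystatins 0 and 0 of 3. For olaparib RRAGD (-0.46, adjusted p = 0.0115) and NAGLU (-0.39, adjusted p = 0.0375) were called, against 1.66% of all genes lower. Only the NAGLU call ended without some library.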

How the data were processed

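RNA-seq of polyadenylated RNA gave 18 libraries in 6 groups of 3. The authors deposited FPKM values per gene and per transcript for build GRCh38, per the file headers and the submitters' processing notes, which list StringTie 2.2.1, HISAT2 2.2.1, DESeq2 1.38.3, fastp 0.23.2 and featureCounts 2.0.3. The tool and annotation behind the FPKM are not given in the sources used here. FPKM divides out depth, so the number of reads in each library is unknown and no counting interval is given. A rough depth relative to untreated wild-type library 1 was taken from the commonest ratio of low FPKM values. It ran from 0.747 to 1.24, rested on 51 to 91 genes in each other library and was not used in the fit. Its group means ran from 0.785 (wild type, siPARP1) to 1.12 (wild type, olaparib). Unnamed loci held 43.4% to 49.8% of the summed FPKM and stayed out of the named genes.

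The 42 genes and the pathway lists were chosen with earlier results of these data known. Symbols for 61757 of 62830 IDs came from the gene table supplied for the organism, positions from GENCODE 29. Genes with at least 1 FPKM in 3 or more libraries (15764) were fitted on a log2 scale after adding 1 FPKM, using limma 3.58.1 under R 4.3.3, with 6 group means, moderated trend variance and 12 residual degrees of freedom. P-values were adjusted by Benjamini-Hochberg over all tested genes and called under 0.05. Interactions compare a treatment's change between genotypes. Values in every library were given for TFEB, TFE3 and MITF and, per comparison, for up to 8 called genes of largest change with a mean of at least 5 FPKM and groups that did not overlap; up to 3 called genes per further list were named, and others after their values were seen. Some genes of the further lists are not reported here by name. The fit was tested on simulated data. Single sums and shares were compared by exact two-sided permutation tests. Alternatives were a pseudocount of 0.1, no filter, rescaling to TPM, median-of-ratios scaling, scaling to nuclear annotated genes, sums of the listed transcripts, a replicate block, only the groups compared, removal of 10 Mb medians (stretches of at least 10 genes) and each library left out.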

Additional observations from a re-analysis of the deposited data

Results flagged for a closer look

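The siPARP1 response of 2 of 41 tested lysosome genes differed between genotypes by a test of the difference itself. Both responses were lower in the knockout, where 2.52% of all tested genes had a lower and 2.74% a higher response. ATP6V1A, the catalytic pump subunit, changed by 0.83 in wild-type and 0.57 in knockout cells, a difference of -0.261 in log2 (limma adjusted p = 0.00522), with no overlap between the siPARP1 libraries of the genotypes. CTSL, cathepsin L, changed by 1.39 and 0.94, a difference of -0.453 (limma adjusted p = 0.0392). The CTSL call ended without any of 7 of the 12 libraries involved (adjusted p from 0.0655 to 0.0897), without the filter on low values (0.0772), with TPM (0.0642) or nuclear scaling (0.052), over listed transcripts (0.109), with the replicate block (0.0506) and with only the groups compared (0.0978). Both remain tied to loss of PARP1, transfection and culture time together, which cannot be told apart.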

How the results depend on the processing

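With the pseudocount at 0.1 all 369 values over 41 genes and 9 comparisons kept their direction and side of the threshold. So did 364 with nuclear scaling, 359 with TPM, 353 with median-of-ratios scaling, 350 without a filter, 339 with only the groups compared and 334 with transcript sums. Removing 10 Mb medians kept 113 of 123. Between untreated genotypes, higher calls went from 5 to 3 with only the groups compared (4 to 5 with a library left out), and lower calls from 6 to 2 with TPM and 3 with only the groups compared (3 to 6). With olaparib the 3 higher fell to 1 after 10 Mb removal (3 to 4) and the 5 lower to 2 with TPM (3 to 6). With siPARP1 the 3 higher fell to 0 after 10 Mb removal (2 to 3), since MCOLN1, GLB1 and ATP6V1B2 lost their calls, and the 8 lower to 5 with transcript sums (8 to 9). For olaparib in wild-type cells, 16 higher became 10 to 15 with a library left out and 4 lower became 2 to 4, with 2 under no filter and 2 under transcript sums. For siPARP1 in wild-type cells the left-out ranges were 25 to 28 higher and 4 to 5 lower, with 3 lower under transcript sums. In knockout cells they were 11 to 15 higher and 4 to 6 lower for olaparib, with 3 lower under transcript sums, and 26 to 30 higher and 3 to 5 lower for siPARP1. Olaparib interactions gave 0 to 1 higher and 0 to 1 lower. For siPARP1 interactions the 2 lower became 1 without a filter, with TPM, nuclear scaling, the replicate block or only the groups compared (left out 1 to 3, and 0 higher). The direction reversed for GLA between untreated genotypes with transcript sums (0.187, limma adjusted p = 0.632) and ATP6V1B2 between siPARP1 genotypes after 10 Mb removal (-0.022, adjusted p = 0.845). The cause was not tested.

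Over all genes, the share of calls that were higher moved from 46.8% to 58.9% with TPM between untreated genotypes and from 44.2% to 58.2% between olaparib genotypes. It moved from 58.4% to 47.9% with median-of-ratios scaling for siPARP1 in knockout cells, and from 52.1% to 64% with nuclear scaling for the siPARP1 interaction.

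Deviations of same-numbered libraries in the groups compared had correlations of -0.0632 to 0.0738. Among libraries of all other groups, 14 of 18 libraries correlated best with one of their own number. Whether the numbers mark a shared culture or day was not tested, and the main fit has no block. The replicate block kept 363 of 369 values. It ended the calls of GLB1 (0.25, adjusted p = 0.0507) and GUSB (-0.32, adjusted p = 0.0511) with olaparib in wild-type cells, PPT1 with siPARP1 in knockout cells (0.48, adjusted p = 0.0581) and the CTSL interaction (-0.45, adjusted p = 0.0506), which left 1 lower call there. Unknown read numbers and 3 libraries a group limit the precision, most of all for genes near 1 FPKM.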
